A study of Neurospora crassa with 6 samples.

Results

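Polycomb repressive complex 2 (PRC2) places methyl groups on lysine 27 of histone H3 and so marks facultative heterochromatin. The transcripts of its 4 core subunits in the filamentous fungus Neurospora crassa, and of 2 genes tied to the same silenced chromatin, were compared between a cac-1 suz-12 double knockout and a cac-1 single knockout. The members are 6 of the 9757 genes of the deposited count table. They were taken as the rows for suz-12, eed, set-7 and cac-3 (the core subunits) and for epr-1 and ash-1 (the effectors), by gene name or locus number.

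Within the complex, set-7 encodes the methyltransferase itself, eed a WD40-repeat protein that binds the methylated histone tail and stimulates the enzyme in animals and plants, and suz-12 a zinc-finger scaffold. The gene cac-3, also called npf, encodes a histone-binding WD40 protein that is shared with chromatin assembly factor 1 (CAF-1), the chaperone that deposits new histones behind the replication fork. EPR-1 is a BAH-domain protein that reads lysine 27 methylation and is needed to silence part of the marked genes. ASH1 is a histone H3 lysine 36 methyltransferase that acts in part of the same chromatin.

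The study's RNA sequencing used here holds 3 libraries labelled as the cac-1 suz-12 knockout and 3 labelled as the cac-1 knockout, all from mycelium grown overnight in Vogel's minimal medium. Both strains thus lack cac-1, the large subunit of CAF-1, and the comparison asks what changes when suz-12 is removed as well. A strain with CAF-1 was not analysed here. The labels do not say whether replicates were separate cultures, and p-values measure only the spread between these libraries. The libraries of a strain carry adjoining numbers in the labels, and if the strains were prepared apart, preparation and strain cannot be told apart.

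Library totals lay between 18993719 and 28327383 counts in the double knockout and between 7989915 and 25315143 counts in the single knockout, where replicate 1 was the shallowest. No count fell on cac-1 in any library. The mating-type gene matA-1 had 1193, 1387 and 1000 counts in the double knockout and 0 in each single-knockout library, so the strains differed at another locus besides suz-12. Where that locus lies relative to the members was not analysed here. Effects of such other differences between the strains cannot be told apart from those of removing suz-12. Of the 9148 genes that could be tested, 28.1% passed an edgeR adjusted p of 0.05, which is the threshold for a call throughout, 16.1% being higher and 11.9% lower in the double knockout. Of 8 conidiation genes, which mark the asexual spores that a mycelial culture may form, none was at 0. Their summed level was 285 to 347 CPM (counts scaled to a common library total, with TMM factors) in the double knockout and 293 to 520.3 CPM in the single knockout. One of them, con-6, was called higher, at 62.3 ± 17.5 CPM in the double against 19.1 ± 1.60 CPM in the single knockout, and con-8 was called lower, at 50.9 ± 3.36 against 177 ± 49.5 CPM (SD, n = 3 each). The part of conidiating cells in the results below was not tested.

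The locus of the deleted gene, NCU05460 (linkage group II, 1672402 to 1675780, minus strand, 3 counted intervals), had 54, 70 and 55 counts in the double and 74, 207 and 197 in the single knockout. Its CPM did not overlap between the strains. The level in the double knockout was 32.0% of that in the single knockout (log2 fold change -1.65, 95% interval -2.17 to -1.13, edgeR adjusted p = 8.20e-05). The library of each replicate labelled as a double knockout thus held reads from the locus, and which part of the gene they cover was not analysed here.

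Counting all 6 members, 3 were called. These were suz-12 and cac-3, both lower, and epr-1, which was higher. The remaining 5 members without the deleted gene gave 2 calls, against 28.1% of all genes. The log2 fold change of these 5 had a median of 0.20, and that of all genes tested a median of -0.00089. For the same 3 members the strains did not overlap in CPM. Without the deleted gene these were cac-3 and epr-1, 2 of 5 members, against 42.3% of all genes tested.

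**Figure D1:**
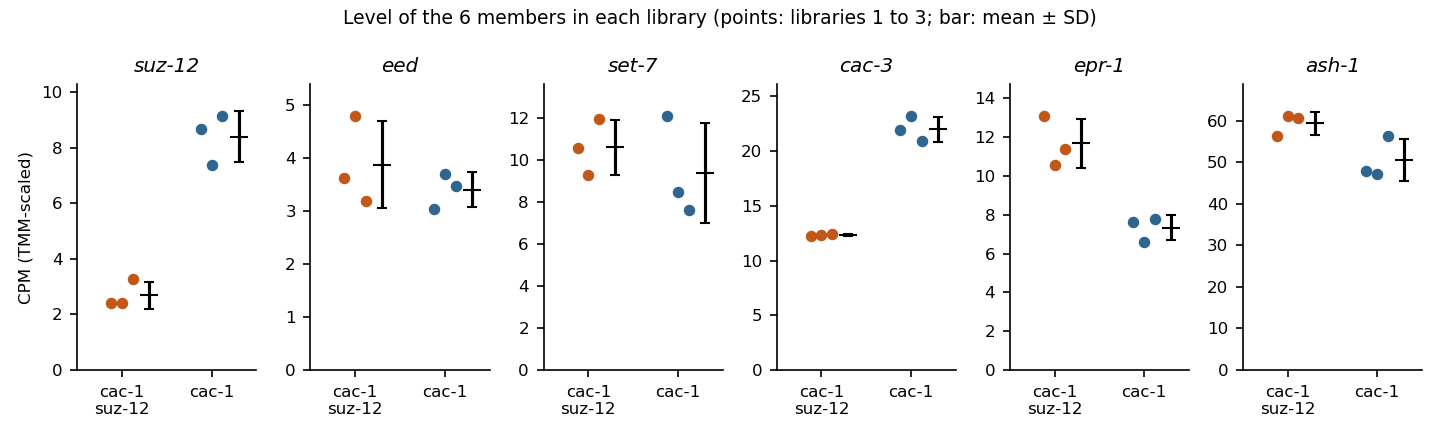
TMM-scaled CPM (vertical axes, linear and starting at 0, a separate scale in each panel) of the 6 members, with the cac-1 suz-12 libraries left of the cac-1 libraries. Each point is a library and the bar beside it the mean ± SD of 3 libraries. The strains do not overlap for suz-12, cac-3 and epr-1, and overlap for eed, set-7 and ash-1.

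Among the effectors, the reader gene epr-1 (NCU07505, linkage group I, 378276 to 380096, minus strand, 4 counted intervals) was the member that rose. It stood at 13.1, 10.6 and 11.4 CPM in the double knockout and at 7.61, 6.61 and 7.78 CPM in the single knockout. Every double-knockout library lay above every single-knockout library. The means were 11.7 ± 1.27 and 7.34 ± 0.634 CPM (SD, n = 3 each), a change of 1.60-fold with a 95% interval from 1.20 to 2.13 (log2 fold change 0.68, SE 0.198, edgeR adjusted p = 0.0172). The call did not hold without double-knockout replicate 1 (edgeR adjusted p = 0.0959), without single-knockout replicate 2 (edgeR adjusted p = 0.0626) or on library totals (edgeR adjusted p = 0.0947). Library totals moved the median of all genes to -0.20 on the log2 scale, and relative to that median epr-1 was higher by 0.67. In these bulk samples a change in the share of cells that express a gene and a change in RNA per cell cannot be told apart.

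The methyltransferase gene ash-1 (NCU01932, named set-3 in the count table, linkage group I, 1971204 to 1975063, minus strand, 3 counted intervals) had the most counts of the members. It stood at 56.2, 61.04 and 60.6 CPM in the double and at 47.9, 47.2 and 56.3 CPM in the single knockout. Single-knockout replicates 1 and 2 lay below all other libraries, while replicate 3 fell within the range of the double knockout. The log2 fold change of 0.23 (95% interval -0.077 to 0.54) was not called (edgeR adjusted p = 0.257), and on library totals the change was 0.039 (edgeR adjusted p = 0.886). An increase of ash-1 beyond 1.45-fold or a decrease below 0.948-fold lay outside this interval. It stood closest to the threshold among the members that were not called, and it passed it in none of the alternatives run.

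Among the core subunits, eed (NCU05300, linkage group IV, 5413513 to 5416093, plus strand, 6 counted intervals) had the lowest average level, a log2 CPM of 1.92. Its counts were 82, 140 and 54 in the double knockout and 26, 104 and 75 in the single knockout, or 3.63, 4.80 and 3.20 CPM against 3.05, 3.70 and 3.48 CPM. Double-knockout replicate 2 was the highest library, and the other double-knockout libraries lay within the single-knockout range. With a log2 fold change of 0.18 and an SE of 0.271, eed was not called (edgeR adjusted p = 0.663). Its 95% interval ran from -0.39 to 0.76, or from 0.761-fold to 1.69-fold. The sign rested on scaling and on 1 library: the change was -0.0019 on library totals and -0.0078 without double-knockout replicate 2.

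The catalytic subunit gene set-7 (NCU07496, linkage group I, 409003 to 415191, minus strand) stood at 10.5, 9.28 and 11.9 CPM in the double and at 12.1, 8.46 and 7.60 CPM in the single knockout. Single-knockout replicate 1, the shallowest library, was the highest of all 6. With a log2 fold change of 0.20 (95% interval -0.26 to 0.65) set-7 was not called (edgeR adjusted p = 0.535). Its change was -0.011 on library totals. Without single-knockout replicate 1 the change was 0.39, and set-7 was not called there either (edgeR adjusted p = 0.234). The change was 0.056 without single-knockout replicate 3 and 0.11 without double-knockout replicate 3.

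The shared subunit gene cac-3 (NCU06679, linkage group V, 4250021 to 4251431, plus strand) was the most even of the members among the double-knockout libraries. It stood at 12.2, 12.3 and 12.4 CPM in the double and at 21.9, 23.2 and 20.9 CPM in the single knockout. The coefficient of variation over libraries was 0.659% in the double and 5.19% in the single knockout, against 21.3% and 9.72% for eed and 12.5% and 25.3% for set-7. The level of cac-3 in the double knockout was 55.9% of that in the single knockout (log2 fold change -0.84, edgeR adjusted p = 0.00100).

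Levels of different genes were compared as CPM per kb of counted length, which for these genes appears to be coding sequence and ran from 1.341 kb for cac-3 to 4.836 kb for set-7. In the double knockout ash-1 stood highest, with 16.0 ± 0.719 CPM per kb, followed by cac-3 with 9.18 ± 0.0605, epr-1 with 7.24 ± 0.787, set-7 with 2.19 ± 0.273, eed with 1.88 ± 0.401 and suz-12 with 1.05 ± 0.196 CPM per kb (SD, n = 3 each). In the single knockout cac-3 stood highest, with 16.4 ± 0.852 CPM per kb, followed by ash-1 with 13.6 ± 1.36, epr-1 with 4.55 ± 0.393, suz-12 with 3.29 ± 0.360, set-7 with 1.94 ± 0.490 and eed with 1.65 ± 0.161 CPM per kb (SD, n = 3 each). The position of set-7 and eed relative to each other differed between libraries of the same strain, and their ranges overlapped in both strains. The other neighbours in each order did not overlap over the libraries.

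The order differed between the strains in every library. The level per kb of cac-3 was above that of ash-1 in all 3 single-knockout libraries and below it in all 3 double-knockout libraries. The deleted gene suz-12 was above set-7 and eed in the single knockout and below them in the double knockout, a shift that reflects its own lower level. Set against all genes of the table, the core subunits other than cac-3 were low transcripts. The level per kb of eed exceeded that of 12.9% to 19.0% of genes over the 6 libraries and that of set-7 exceeded 15.3% to 22.01%. By the same measure ash-1 exceeded 52.6% to 57.5% of genes, and epr-1 exceeded 36.8% to 41.8% in the double and 29.6% to 32.6% in the single knockout.

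The balance between members was then taken as the ratio of their levels per kb within each library, a measure in which the scaling between libraries cancels. Of the 15 pairs of members, 10 had ratios that did not overlap between the strains. The deleted gene is part of 5 of these 10, and its own loss enters each of those ratios. Of the 10 pairs without it, 5 did not overlap, against 44.1% of all pairs of tested genes with a count in every library. Of these 5, 4 shared cac-3 as a partner and are not independent, and the last was between ash-1 and epr-1. With 3 libraries against 3, the exact two-sided permutation test cannot give a p below 0.1. Each of the 10 pairs that did not overlap reached that value (Benjamini-Hochberg adjusted p over the 15 pairs = 0.15), so that none could pass 0.05.

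The pair of set-7 and eed, enzyme and stimulating subunit, had nearly equal mean ratios in the strains. The ratio was 1.24, 0.824 and 1.58 in the double knockout and 1.69, 0.974 and 0.931 in the single knockout, with geometric means of 1.17 and 1.15. Values above and below 1 occurred in both strains, and the difference of 0.026 on the log2 scale was far below the spread among libraries (exact permutation p = 1). Its sign changed when single libraries were left out.

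The ratios of cac-3 to set-7 and to eed were lower in the double knockout, while its ratio to the deleted suz-12 was higher, with geometric means of 8.81 and 5.004. Relative to set-7, cac-3 stood at 4.18, 4.78 and 3.75 in the double and at 6.55, 9.88 and 9.92 in the single knockout. Relative to eed it stood at 5.17, 3.94 and 5.94 against 11.04, 9.62 and 9.23. The 2 strains did not overlap in either ratio, and their geometric means fell to 0.489-fold for set-7 and 0.498-fold for eed in the double knockout (exact permutation p = 0.1 each).

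The widest shift among pairs without the deleted gene was between cac-3 and the reader gene epr-1. Their ratio was 1.13, 1.40 and 1.31 in the double knockout and 3.46, 4.22 and 3.23 in the single knockout, a 0.352-fold change of the geometric mean. Both genes contributed, since cac-3 was lower and epr-1 higher. Between the effectors, the ratio of ash-1 to epr-1 was 1.87, 2.504 and 2.31 in the double and 2.73, 3.10 and 3.14 in the single knockout, 0.741-fold. The ratios of epr-1 to set-7 and to eed overlapped between the strains (exact permutation p = 0.2 and 0.3), although their geometric means were 1.39-fold and 1.41-fold higher in the double knockout.

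**Figure D2:**
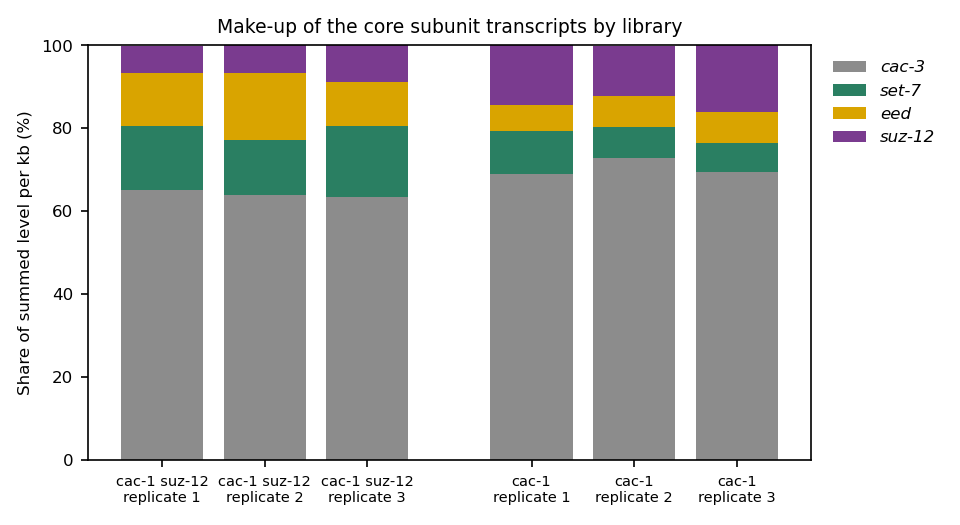
Share of each core subunit (vertical axis, percent) in the summed CPM per kb of the 4 core subunits, for each cac-1 suz-12 library and then each cac-1 library. The share of cac-3 is the largest in all 6 libraries, and the shares of set-7 and eed are larger in each cac-1 suz-12 library than in any cac-1 library.

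As shares of the summed level of the 4 core subunits, cac-3 made up 64.2 ± 0.830% in the double and 70.4 ± 2.15% in the single knockout (SD, n = 3 each). The deleted suz-12 made up 7.35 ± 1.26% and 14.2 ± 1.90%. The share of set-7 was 15.3 ± 1.81% in the double and 8.30 ± 1.93% in the single knockout, and that of eed 13.2 ± 2.81% and 7.12 ± 0.757%. No share overlapped between the strains (exact permutation p = 0.1 each). Shares sum to a whole, so those of set-7 and eed move when the other subunits do. The summed level of set-7 and eed itself was 3.95, 4.25 and 4.02 CPM per kb in the double and 3.97, 3.55 and 3.26 CPM per kb in the single knockout, and the strains overlapped. The sum of the 3 subunits other than suz-12 was 13.2 ± 0.177 CPM per kb in the double and 19.99 ± 1.03 CPM per kb in the single knockout, a difference carried by cac-3.

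To see whether the members shared their differences with their surroundings, the 2 nearest genes on each side of each member were read from the same edgeR fit. Of 23 neighbours that could be tested, 3 were called, all higher, against 28.1% of all genes. On library totals, and without single-knockout replicate 3, the calls were 2 higher and 2 lower. The neighbours of cac-3 changed by -0.33 to 0.29 on the log2 scale and none was called. The neighbours of eed, set-7 and ash-1 were not called either. Distances were unequal: on the lower-coordinate side the nearest gene lay 15614 bp from cac-3 and 9752 bp from ash-1, but 541 bp from eed. A change shared only over shorter distances would not be seen there for cac-3 and ash-1. No member overlapped another gene, whether by counted intervals or by the RefSeq gene spans.

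**Figure D3:**
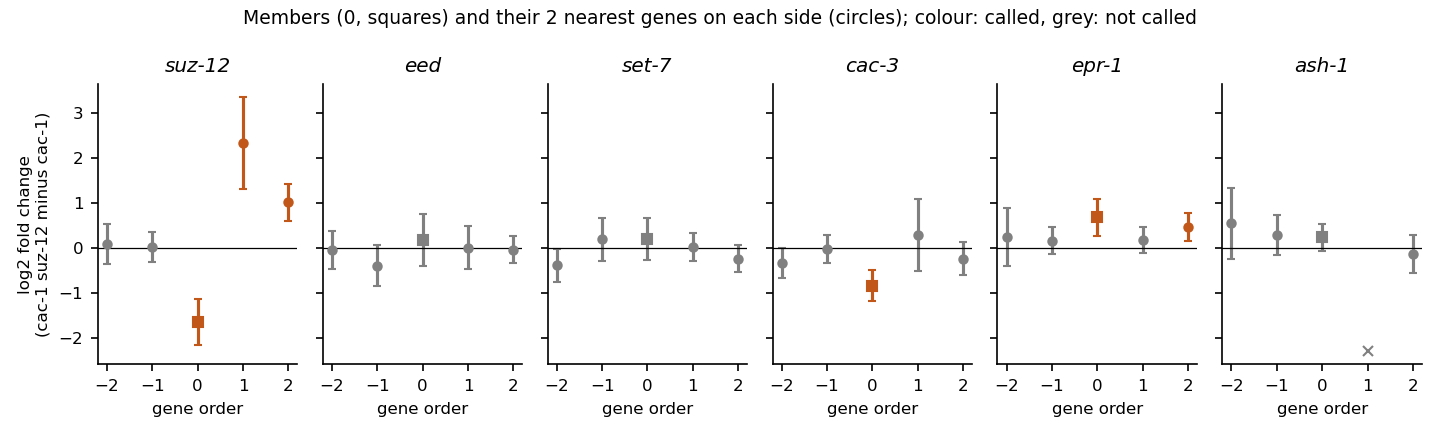
Log2 fold change (cac-1 suz-12 minus cac-1, vertical axis) of each member (position 0, squares) and of its 2 nearest genes on each side in order of coordinate (circles), with 95% intervals from the edgeR fit. Coloured points were called, grey points were not, and the cross marks a neighbour of ash-1 with too few counts to be tested. The called neighbours lie beside suz-12 and epr-1.

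Beside the deleted gene, both genes on the higher-coordinate side, which is the upstream side of suz-12, were higher in the double knockout. NCU05462, whose counted span starts 1278 bp from that of suz-12, stood at 1.46, 1.75 and 2.91 CPM in the double and at 0.469, 0.462 and 0.278 CPM in the single knockout (log2 fold change 2.33, SE 0.480, edgeR adjusted p = 0.00161). It rested on 33, 51 and 49 counts against 4, 13 and 6, and a filter of at least 10 counts in every library left it out. NCU05463, the next gene, stood at 20.6, 15.4 and 22.5 CPM against 10.8, 9.85 and 8.53 CPM (log2 fold change 1.01, edgeR adjusted p = 8.72e-04). Neither gene overlapped between the strains. On the other side of suz-12, NCU05459 and NCU05458 changed by 0.020 and 0.087 on the log2 scale and were not called.

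The genes epr-1 and set-7 lie close together on linkage group I, with 28.9 kb and 8 genes of the table between their counted spans, a position that the choice of members did not use. Of these 8 genes, 3 were called, all higher in the double knockout, or 37.5% against 28.1% of all genes called and 16.1% called higher. The median log2 fold change of the 8 was 0.44, beside -0.00089 over all genes tested. The stretch was not among the planned comparisons. It shares the transporter gene MFS1, NCU07503, mus-40 and NCU07497 with the neighbours described above. Of its called genes, NCU07503 is the one that also belongs to the nearest neighbours of epr-1. It stood at 279, 269 and 296 CPM against 200.5, 211 and 199 CPM (log2 fold change 0.47, edgeR adjusted p = 0.0231), and lost the call on library totals (edgeR adjusted p = 0.231). Leaving out single-knockout replicate 1 or 3 or double-knockout replicate 1 or 3 also ended it, with edgeR adjusted p-values from 0.0634 to 0.0811.

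The other 2, NCU07501 and NCU07500, lie side by side in the middle of this stretch and were singled out after their values were seen. NCU07501 had 418, 324 and 248 counts in the double knockout and 16, 26 and 12 in the single knockout, or 14.8 ± 3.71 against 1.12 ± 0.680 CPM (SD, n = 3 each; log2 fold change 3.91, SE 0.344, edgeR adjusted p = 4.74e-07). NCU07500 had 887, 673 and 566 counts in the double knockout and 2, 24 and 24 in the single knockout, or 32.0 ± 8.24 against 0.733 ± 0.451 CPM (SD, n = 3 each; log2 fold change 5.25, SE 0.317, edgeR adjusted p = 9.18e-09). No single-knockout library held more than 26 counts of either. With 2 counts in single-knockout replicate 1, NCU07500 was left out by a filter of at least 10 counts in every library. The genes that separate NCU07500 from set-7 (NCU07499, mus-40 and NCU07497) were not called, and neither was set-7. Next to NCU07500, NCU07499 changed by 1.16 on the log2 scale (95% interval 0.073 to 2.26) on 6 to 35 counts. Next to NCU07501, NCU07502 changed by 0.42 (95% interval 0.076 to 0.76) and was not called. In contrast, mus-40 changed by -0.39 (95% interval -0.76 to -0.025), and NCU07497 by 0.19 (95% interval -0.28 to 0.66).

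**Figure D4:**
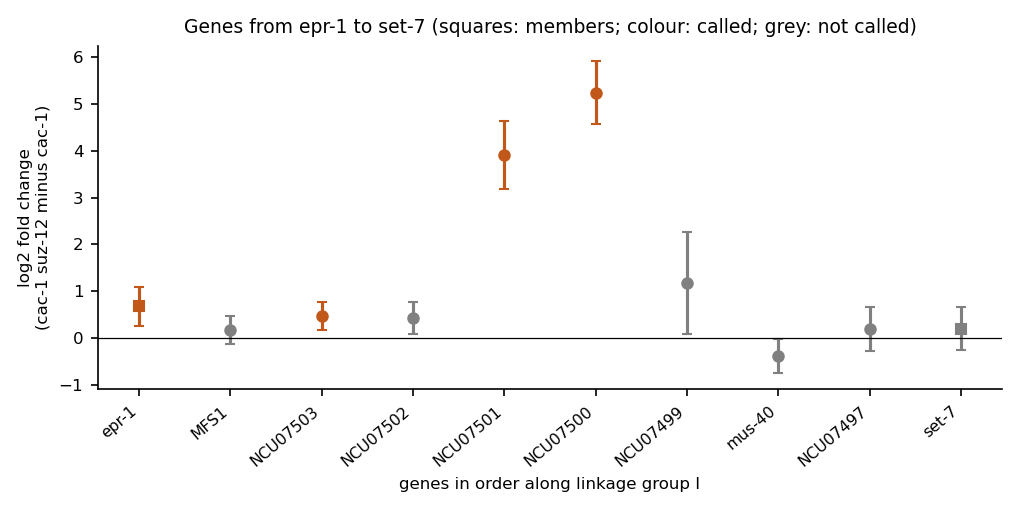
Log2 fold change (cac-1 suz-12 minus cac-1, vertical axis, 95% intervals from the edgeR fit) of the genes from epr-1 to set-7 in their order along linkage group I. Squares are the 2 members, circles the 8 genes between them, coloured points were called. NCU07501 and NCU07500 stand at 3.91 and 5.25, and the other genes between -0.39 and 1.16.

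Related chromatin genes were read from a list of 32 names, of which 25 could be paired with a row of the table and 24 were tested. Of these, 3 were called, 2 higher and 1 lower, or 12.5% against 28.1% of all genes. The median of their log2 fold changes was 0.039, beside -0.00089 over all genes tested. Among 15 genes of histone and DNA methylation, set-1, the histone H3 lysine 4 methyltransferase, was the one called, at 17.9, 15.5 and 22.05 CPM in the double and 11.1, 13.2 and 13.6 CPM in the single knockout (log2 fold change 0.54, edgeR adjusted p = 0.0394). The call of set-1 did not hold without single-knockout replicate 1 or 2, without double-knockout replicate 1 or 3, on library totals, with upper-quartile scaling, with limma-voom or on thinned counts, with adjusted p-values up to 0.214. The lysine 36 methyltransferase set-2, the lysine 9 methyltransferase dim-5, the heterochromatin protein gene hpo and the deacetylase genes hda-1 to hda-4 were not called.

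Among 9 tested genes of histone chaperones, remodelers and the nucleosome, 2 were called. The histone H3 gene hH3, which encodes the substrate of PRC2, stood at 7113, 5456 and 6628 CPM in the double and at 3284, 2947 and 4199 CPM in the single knockout (log2 fold change 0.88, SE 0.183, edgeR adjusted p = 0.00172). Its libraries did not overlap, while the histone H4 genes hH4-1 and hH4-2 and the variant gene hH3v were not called. Reads of hH4-1 and hH4-2, which encode the same protein, may be shared between the copies. The gene asf-1, which encodes a chaperone of histones H3 and H4, was lower, at 55.7, 49.05 and 44.0 CPM against 74.2, 71.8 and 73.7 CPM (log2 fold change -0.56, SE 0.147, edgeR adjusted p = 0.00873). The second CAF-1 subunit gene cac-2 was not called.

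**Figure D5:**
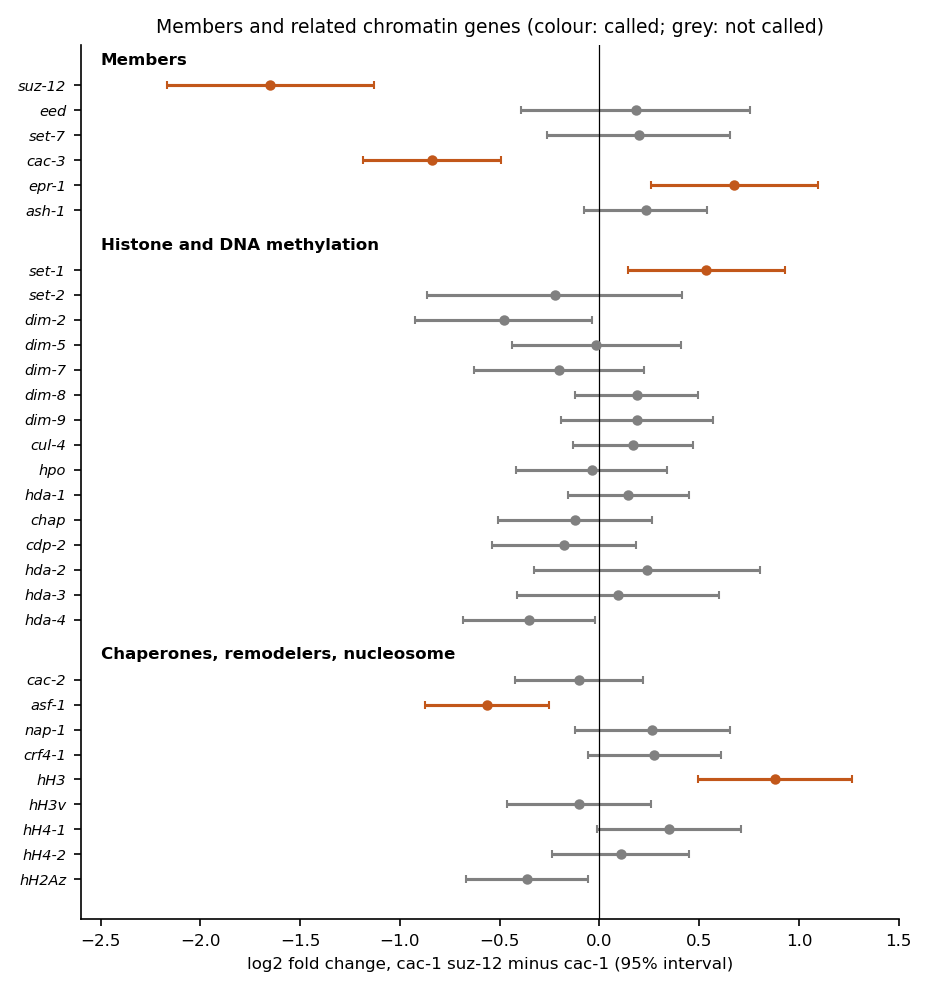
Log2 fold change (cac-1 suz-12 minus cac-1, horizontal axis) with 95% intervals from the edgeR fit for the 6 members and the 24 tested related chromatin genes. Coloured points were called at an edgeR adjusted p under 0.05. Of the related genes set-1 and hH3 lie above 0 and asf-1 below it among the called ones.

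The genes whose pattern over the 6 libraries was most like that of a member were found by the root-mean-square difference of centred log2 CPM, among the 7623 genes whose average log2 CPM reached 2. For epr-1 these were syn-1, with a difference of 0.056, and NCU02272, with 0.065. For ash-1 they were tkl-1, with 0.019, and NCU11228, with 0.032. With an average log2 CPM of 1.92, eed was below the limit and was not compared. The measure describes likeness over libraries of 2 strains and carries no test.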

How the data were processed

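The authors deposited raw counts per gene in 1 table, and per the file headers each column comes from one alignment file, so replicates were not pooled. The submitters' processing notes name Trim Galore 0.6.10, STAR 2.7.11, SAMtools 1.21, Subread 2.0.6 with featureCounts and deepTools 3.5.5. The genome build and the strand setting are not given in the sources used here. Per the labels' protocols the library kit was directional. The gene length in the deposited table, in bp, is the counted length and a multiple of 3 for 98.8% of genes, so it appears to be coding length. The counted spans of all 9723 genes matched to the RefSeq table (assembly NC12) lay within the RefSeq gene. Linkage groups come from that match, and coordinates from the deposited table. The table has 36 other columns of counts that carry no label of these samples, and they were left out.

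The files and the RefSeq table pair set-7 and cac-3 with their names and NCU01932 with set-3. The names suz-12, eed, epr-1 and ash-1 for NCU05460, NCU05300, NCU07505 and NCU01932 come from general knowledge of the organism. The members and lists were chosen with earlier results of these data known. The genes named were the members, their neighbours, the genes between epr-1 and set-7, the called genes of the lists and the 2 nearest patterns. Names on the lists were used only where a table pairs them with a row, which left out 7 of the related chromatin genes. On the conidiation list of 10 names, con-11 had no row and con-3 was dropped as a mere synonym of acu-6.

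Counts were fitted with edgeR 4.0.16 in R 4.3.3 (filterByExpr, TMM, robust quasi-likelihood, no replicate block, Benjamini-Hochberg adjustment over 9148 genes, 609 filtered out). A standard error is the log2 fold change divided by the square root of F, and intervals are 95% from it. CPM is counts over TMM-scaled library totals. The depth is least in single-knockout replicate 1, where 3 counts are 0.375 CPM on the library total. Even numbers made up 80.9% of values between 1 and 20, so 1 count may not be 1 fragment. The test was checked on simulated counts with known changes. The simulation changed few genes, as many up as down, each by more than epr-1 changed here, and used a common dispersion. It thus does not cover smaller changes or the large share of genes called in these data. Alternatives were other scalings, filters, DESeq2 1.42.0, limma-voom (limma 3.58.1), non-robust estimation, a replicate block, halved or thinned counts, no 20 most abundant genes, 0.5 counts added in ratios, and each library left out.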

Additional observations from a re-analysis of the deposited data

How the results depend on the processing

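The number of members called was 3 in all alternatives with all 6 libraries, apart from library totals, where epr-1 was not called and it was 2. With 1 library left out it was 2 to 3. For suz-12 the log2 fold change ran from -1.85 to -1.48 and for cac-3 from -1.04 to -0.73 with all libraries, and both were called in every alternative. Over the named genes and alternatives 285 values were computed. Sign and call stayed as reported in 266 of them, the call was lost in 16 and the sign changed in 3. On library totals the change was -0.0019 for eed and -0.011 for set-7, a scaling that put the median of all genes at -0.20. With 1 library left out eed ran from -0.0078 to 0.29.

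Related chromatin genes numbered 5 calls on library totals, 1 higher and 4 lower, and 2 to 4 with 1 library left out. Neighbours called were 2 to 4 in both kinds of alternative. Called genes in the whole table numbered 2332 to 3009 where all libraries were used and 1782 to 2674 where 1 was left out, against 2569. Their share of higher calls was 57.5%, 48.0% with upper-quartile scaling and 35.8% on library totals.

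Pairs of members that did not overlap numbered 9 on thinned counts, 10 with 0.5 counts added and 10 to 11 with 1 library left out, against 10. Of 135 pair values 127 kept their sign. These include the values of the replicate block, which equal the main differences by construction, so their sign could not change. With 1 library left out the difference ran from -0.19 to 0.26 for ash-1 to set-7, from -0.078 to 0.21 for ash-1 to eed and from -0.19 to 0.30 for set-7 to eed. The cause was not tested.

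The replicate block gave 3009 calls, of which 2547 were shared with the 2569, and the same number of members called. Deviations of libraries with the same number correlated at -0.015, 0.097 and 0.17. Libraries with different numbers were not compared, so whether those of the same number share more than the number was not tested. For the pairs of members the replicate block left 11 with 1 sign in all 3 pairs of libraries, where the smallest exact sign-flip p is 0.25.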
